A study of Mus musculus with 31 samples.

Results

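DNA replication genes were followed through a TGFB1 response in mouse natural killer (NK) cells, lymphocytes of the innate immune system with killing activity. The set is a list of 48 genes given by name, from the factors that mark replication origins to the E2F proteins that switch S-phase genes on, and it was chosen with earlier results of these data known. All 48 were found in the count table, and 46 of them were among the 10275 genes that passed a filter on low counts. Mcm2 and Rfc4 did not pass, at 0 to 7 and 0 to 10 counts per library. The data are 31 libraries from 3 genotypes, each at 3 times. These are wild type (WT), TGFBRII KO, which lacks the type II receptor for transforming growth factor beta, and CIS KO, which lacks CIS, a SOCS-family protein that restrains the response to interleukin 15. Each genotype was sampled unstimulated (4 WT, 3 TGFBRII KO and 4 CIS KO libraries), after 4 h of TGFB1 (2, 3 and 4 libraries) and after 24 h of TGFB1 (4, 3 and 4 libraries).

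Several limits of these groups bear on what follows. The labels give no age, sex or strain of the mice, no way in which either gene was deleted, no TGFB1 dose and no culture medium. The unstimulated cells carry no time in culture, and cells kept for 4 or 24 h without TGFB1 were not analysed here, so within a genotype the cytokine and the time in culture cannot be told apart. The labels call the replicates biological and do not say whether they came from separate mice, so p-values measure the spread between these libraries.

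Before S phase, the origin recognition complex (Orc proteins), Cdc6 and Cdt1 load the ring of Mcm proteins onto DNA, and the ring becomes an active helicase when Cdc45 and the GINS proteins join it. DNA polymerases then copy the strands, held in place by the sliding clamp Pcna, while ribonucleotide reductase and its partners supply nucleotides and chromatin factors restore histones and DNA methylation. Many of these genes are bound and controlled by E2F transcription factors, and TGF-β is a textbook inhibitor of lymphocyte proliferation.

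Promoters of 10 genes are printed here because E2F proteins act through short letters near the start of their targets. They were picked, with the values known, to show 7 windows with such letters and 3 without, so the share with letters among them is not that of the list. Those without are of Mcm10 and Rrm2, which had the largest falls in WT at 24 h, and of Rpa1, which was not called there. Other genes with large falls also hold no such letters in the same window and are not printed. They include Mcm3, Cdc45, Prim1, Rrm1, Tyms, Tk1, Chaf1a, Chaf1b, Ccne1 and E2f2. Of these, Mcm3 and E2f2 do hold such letters within 50 bases after a start. Both therefore count as genes with letters in the wider window used for the shares below. Each line is the 200 bases just before the transcription start, 5′ to 3′ on the gene's strand, from RefSeq on GRCm38.p6, with capitals where a run spells TTTCCCGC, TTTCGCGC, TTTGCCGC or TTTGGCGC on either strand, overlapping runs joined.
Orc1, chr4:108579254-108579453 (plus strand): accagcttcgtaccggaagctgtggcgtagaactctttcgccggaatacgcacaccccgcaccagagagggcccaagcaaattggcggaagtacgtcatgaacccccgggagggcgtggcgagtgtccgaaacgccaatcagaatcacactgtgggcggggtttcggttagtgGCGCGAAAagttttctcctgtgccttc
Cdc6, chr11:98907951-98908150 (plus strand): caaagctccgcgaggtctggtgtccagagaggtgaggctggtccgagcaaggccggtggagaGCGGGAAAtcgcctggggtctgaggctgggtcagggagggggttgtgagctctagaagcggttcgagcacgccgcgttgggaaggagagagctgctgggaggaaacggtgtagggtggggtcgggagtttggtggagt
Mcm5, chr8:75109309-75109508 (plus strand): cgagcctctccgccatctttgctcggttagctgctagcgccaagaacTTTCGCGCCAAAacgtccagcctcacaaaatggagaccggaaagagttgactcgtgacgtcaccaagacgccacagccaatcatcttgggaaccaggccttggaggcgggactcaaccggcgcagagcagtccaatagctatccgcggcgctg
Mcm6, chr1:128359706-128359905 (minus strand): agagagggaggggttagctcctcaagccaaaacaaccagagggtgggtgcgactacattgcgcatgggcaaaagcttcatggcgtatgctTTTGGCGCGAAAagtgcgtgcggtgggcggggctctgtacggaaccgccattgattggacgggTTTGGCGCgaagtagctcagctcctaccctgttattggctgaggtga
Pola1, chrX:93632156-93632355 (minus strand): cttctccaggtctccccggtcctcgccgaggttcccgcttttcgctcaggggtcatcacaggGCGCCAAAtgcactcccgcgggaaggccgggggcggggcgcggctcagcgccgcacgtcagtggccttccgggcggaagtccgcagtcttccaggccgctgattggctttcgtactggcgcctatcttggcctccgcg
Rfc3, chr5:151651209-151651408 (minus strand): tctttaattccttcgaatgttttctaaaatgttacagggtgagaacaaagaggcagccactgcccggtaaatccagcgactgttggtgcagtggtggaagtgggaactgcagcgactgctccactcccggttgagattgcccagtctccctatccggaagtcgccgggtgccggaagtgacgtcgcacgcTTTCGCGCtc
Uhrf1, chr17:56304113-56304312 (plus strand): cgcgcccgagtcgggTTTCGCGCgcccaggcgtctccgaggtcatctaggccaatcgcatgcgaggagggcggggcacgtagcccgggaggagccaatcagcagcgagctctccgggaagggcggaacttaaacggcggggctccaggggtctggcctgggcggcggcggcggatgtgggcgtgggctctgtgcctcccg
Mcm10, chr2:5012792-5012991 (minus strand): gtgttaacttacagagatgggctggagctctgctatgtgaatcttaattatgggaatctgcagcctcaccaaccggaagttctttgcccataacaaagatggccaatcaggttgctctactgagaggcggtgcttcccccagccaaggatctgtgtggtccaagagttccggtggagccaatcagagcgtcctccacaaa
Rrm2, chr12:24708054-24708253 (plus strand): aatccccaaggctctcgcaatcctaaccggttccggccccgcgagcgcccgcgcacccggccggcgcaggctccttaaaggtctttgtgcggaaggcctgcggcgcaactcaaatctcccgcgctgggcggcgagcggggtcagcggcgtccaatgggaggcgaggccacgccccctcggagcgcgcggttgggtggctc
Rpa1, chr11:75348384-75348583 (minus strand): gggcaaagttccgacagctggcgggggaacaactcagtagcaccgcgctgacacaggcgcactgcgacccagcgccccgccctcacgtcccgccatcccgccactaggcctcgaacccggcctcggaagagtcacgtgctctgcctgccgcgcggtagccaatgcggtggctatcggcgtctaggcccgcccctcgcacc
The first 7 hold the letters and the last 3 do not, and Uhrf1 has a second RefSeq start whose window holds none. Among the 40 listed genes with an entry, 16 (40%) held the letters in the 300 bases from 250 before to 50 after a start, against 5.16% of 8040 tested genes with an entry and 2.605% of all 27025 genes. CCAAT, the letters bound by NF-Y, was in 62.5% of the 40 genes and in 43.3% of tested genes. TTTGAA, the core of the cell cycle homology element, was in 17.5% and 14.4%. A match is a description of the letters, not of a bound site.

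Library totals were 297561 to 1403005 counts, of which the 48 genes took 0.204% to 0.516%. Cish, the gene of CIS, was at 18.0 to 56.1 CPM (counts scaled to a common library size) in CIS KO and at 124 to 289 CPM in the other genotypes. Tgfbr2 was at 199 to 276 CPM in TGFBRII KO and at 189 to 361 CPM in WT, so its count does not check that label. Pmepa1, a TGF-β feedback gene, was at 386 to 665 CPM in stimulated WT and at 5.95 to 56.2 CPM in stimulated TGFBRII KO. Of the markers, 9 of 10 NK genes passed the filter and summed to 2368 to 5176 CPM, and 0 of 7 B-cell genes and 0 of 7 erythroid genes passed, at 0 to 6.24 and 0 to 4.12 CPM in all. T-cell genes (5 of 9 past the filter, 223 to 486 CPM), myeloid genes (2 of 9, 145 to 292 CPM) and stromal or epithelial genes (2 of 7, 264 to 487 CPM) were detected. The T-cell genes past the filter were Cd3g, Cd3d, Bcl11b, Trac and Cd3e. Cd3g was at 106 to 182 CPM, Cd3d at 47.0 to 127 CPM and Bcl11b at 7.13 to 190 CPM. Trac reached 50.9 CPM and Cd3e 20.2 CPM. Itgax (126 to 282 CPM) and Cd14 (6.71 to 32.1 CPM) passed among myeloid genes. Pecam1 (182 to 347 CPM) and Epcam (50.5 to 140 CPM) passed among stromal or epithelial genes. In those lists the T-cell genes Cd4, Cd8a, Cd8b1 and Cd5 were at 0 to 4.12 CPM in every library. The myeloid genes Lyz2, Csf1r and Adgre1 were at 0 to 3.76 CPM. Of 40 pairs of libraries within a group, 8 differed by less than sampling noise (chi-square per degree of freedom under 1), and none of 425 pairs across groups did. The fit keeps all 31 libraries, and counts are also given with the 6 closest pairs summed into 1 library each. That does not cover every such pair in TGFBRII KO. Unstimulated replicate 1 was under 1 with replicates 3 (0.846) and 2 (0.889), and 24 h replicate 3 with replicates 2 (0.798) and 1 (0.808). Whether any libraries share material was not tested. If they do, the p-values are too small.

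After 24 h of TGFB1, almost the whole replication programme was lower in WT cells and stayed near its starting level in cells without the receptor. In WT, 40 of 46 genes fell and 0 rose, where 11.5% of all tested genes fell and 9.63% rose. The median log2 change of the 46 genes was -0.96, beside 0.03 for all tested genes. In 37 of the 46, every WT library at 24 h lay under every unstimulated one, as in 11.9% of tested genes. The 48 genes together summed to 4135 to 5026 CPM in unstimulated WT libraries, to 3762 to 3927 CPM at 4 h and to 2064 to 2637 CPM at 24 h, so the level at 24 h did not overlap either earlier time. In bulk RNA such as this, fewer cells in S phase and less RNA per cell cannot be told apart. Among the markers at 24 h in WT, the NK genes Ncr1 (-0.47 ± 0.10), Eomes (-0.32 ± 0.10) and Prf1 (-1.05 ± 0.17) and the T-cell list genes Cd3d (-0.58 ± 0.15) and Bcl11b (-0.68 ± 0.18) fell. Cd3g of the T-cell list (0.36 ± 0.12), Itgax of the myeloid list (0.36 ± 0.11) and Pecam1 of the stromal list (0.37 ± 0.09) rose. From unstimulated to 24 h, the summed WT levels went from 2955 to 3642 CPM to 2786 to 3303 CPM for NK genes, from 356 to 410.5 CPM to 312 to 389 CPM for T-cell genes, from 205 to 221 CPM to 215 to 292 CPM for myeloid genes, and from 264 to 302 CPM to 306 to 335 CPM for stromal or epithelial genes. The part of these markers in the falls was not tested.

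In TGFBRII KO, 0 of 46 genes passed the test at 24 h with edgeR's quasi-likelihood test, where 0.0195% of all tested genes did, and the median log2 change was 0.02. At an unadjusted p under 0.05 there was 1 gene, and DESeq2 also called 0. The summed level of the 48 genes was 4245 to 4641 CPM unstimulated, 4097 to 4150 CPM at 4 h and 4221 to 4794 CPM at 24 h. At 4 h 1 gene fell (3.45% of tested genes), E2f2 at -0.81 ± 0.23, and 0 rose (4.57%). The E2f2 change was not called with DESeq2, with the closest pairs summed or without TGFBRII KO 4 h replicate 1 or 2 or unstimulated replicate 3. Between 4 h and 24 h 2 genes rose (4.3% of tested genes), Rrm1 at 0.39 ± 0.13 and E2f2 at 0.79 ± 0.23, and 0 fell (3.86%). DESeq2 called neither, and leaving out any 1 of the 6 libraries left 0 or 1 call. As shares of the 46 genes, the 4 h fall (2.17%) was under that of all tested genes and the later rises (4.35%) were near it. At 24 h 40 of 46 genes were higher in TGFBRII KO than in WT (11.5% of tested genes) and 0 were lower (10.1%), and 41 had no overlap between the libraries (15.9%). Tested as a difference between the responses, 33 of 46 were less reduced in TGFBRII KO (6.89%) and 0 more reduced (3.86%), with a median difference of 1.06. Before stimulation 0 genes differed between these genotypes (0.146%), 4 had an unadjusted p under 0.05, and DESeq2 called 0.

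In CIS KO cells genes of the set were lower at both times. At 4 h 24 of 46 genes had fallen (6.3% of tested genes) and 0 had risen (7.76%), with a median log2 change of -0.67. In WT 4 had fallen at that time (5.03%) and 0 had risen (6.9%), with a median of -0.32 and only 2 WT libraries. The WT count at 4 h was 8 when libraries were scaled by size alone, 2 with depth as a covariate and 1 to 3 on leaving out 1 library, and the CIS KO count was 12 without CIS KO unstimulated replicate 4. At 24 h 25 genes were lower than in unstimulated CIS KO (11.7%) and 1, Rpa1, was higher (12.3%), and the median was -0.46. Counting both directions, these 26 were 17 with DESeq2, 15 with the closest pairs summed, 13 when CIS KO libraries alone were fitted, 16 without CIS KO unstimulated replicate 4 or CIS KO 24 h replicate 2, and 17 without CIS KO unstimulated replicate 2 or CIS KO 24 h replicate 3. The summed level of the 48 genes went from 4377 to 5098 CPM unstimulated to 3201 to 3401 CPM at 4 h and 3249 to 3853 CPM at 24 h. Both stimulated CIS KO groups lay under the unstimulated one, and they overlapped each other. Among the markers in CIS KO at 4 h, Ncr1 (-1.32 ± 0.12) and Bcl11b (-1.83 ± 0.30) fell, and Trac of the T-cell list (1.02 ± 0.31) and Pecam1 (0.31 ± 0.10) rose. At 24 h 5 NK genes fell, Ncr1 (-0.87 ± 0.11), Klrb1c (-0.39 ± 0.11), Eomes (-0.41 ± 0.10), Prf1 (-1.13 ± 0.16) and Gzmb (-0.73 ± 0.18), and no marker of another list was called. The summed T-cell level in CIS KO was 315 to 367 CPM unstimulated, 223 to 313 CPM at 4 h and 298 to 367 CPM at 24 h. This level was also lower at 4 h than unstimulated in WT (283 to 304 CPM, from 356 to 410.5 CPM) and TGFBRII KO (279 to 337 CPM, from 472 to 486 CPM). In WT at 4 h Ncr1 (-1.04 ± 0.14) and Bcl11b (-2.16 ± 0.32) also fell and Pecam1 (0.59 ± 0.12) also rose. In TGFBRII KO at 4 h Cd3d (-0.60 ± 0.19), Cd3g (-0.51 ± 0.15) and Bcl11b (-0.80 ± 0.18) fell. The part of the markers was not tested here either.

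**Figure D1:**
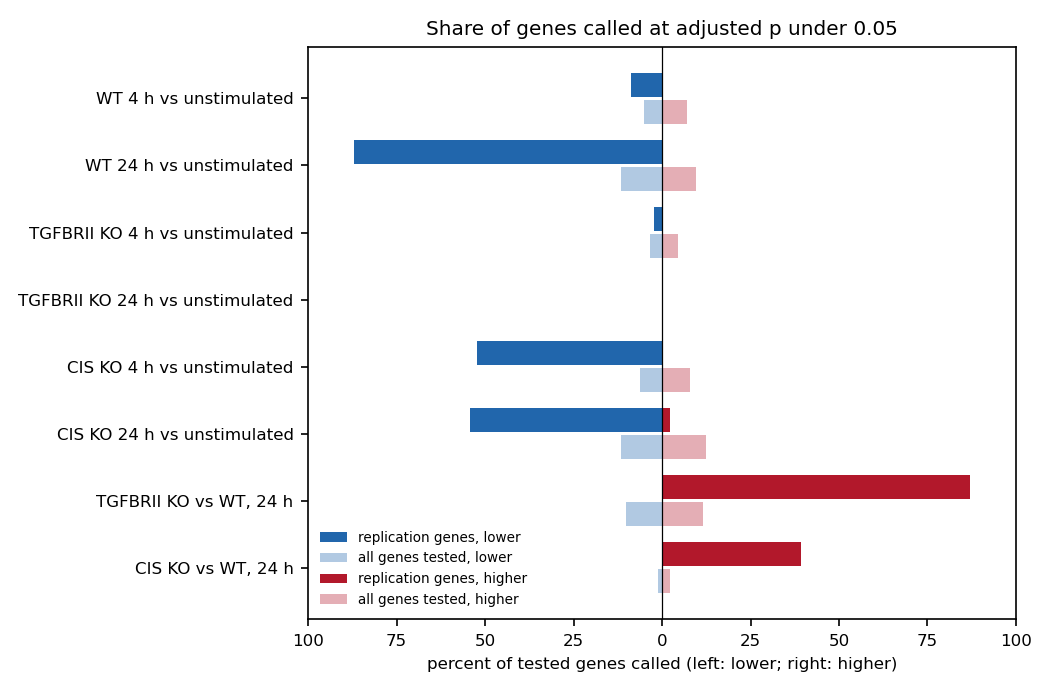
Percent of tested genes called at an adjusted p under 0.05 in each comparison (x axis, lower to the left and higher to the right), for the 46 replication genes (full colour) and all 10275 tested genes (pale). In WT at 24 h 40 of the 46 genes are on the lower side, against 11.5% of all genes, and in TGFBRII KO at 24 h none is.

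**Figure D2:**
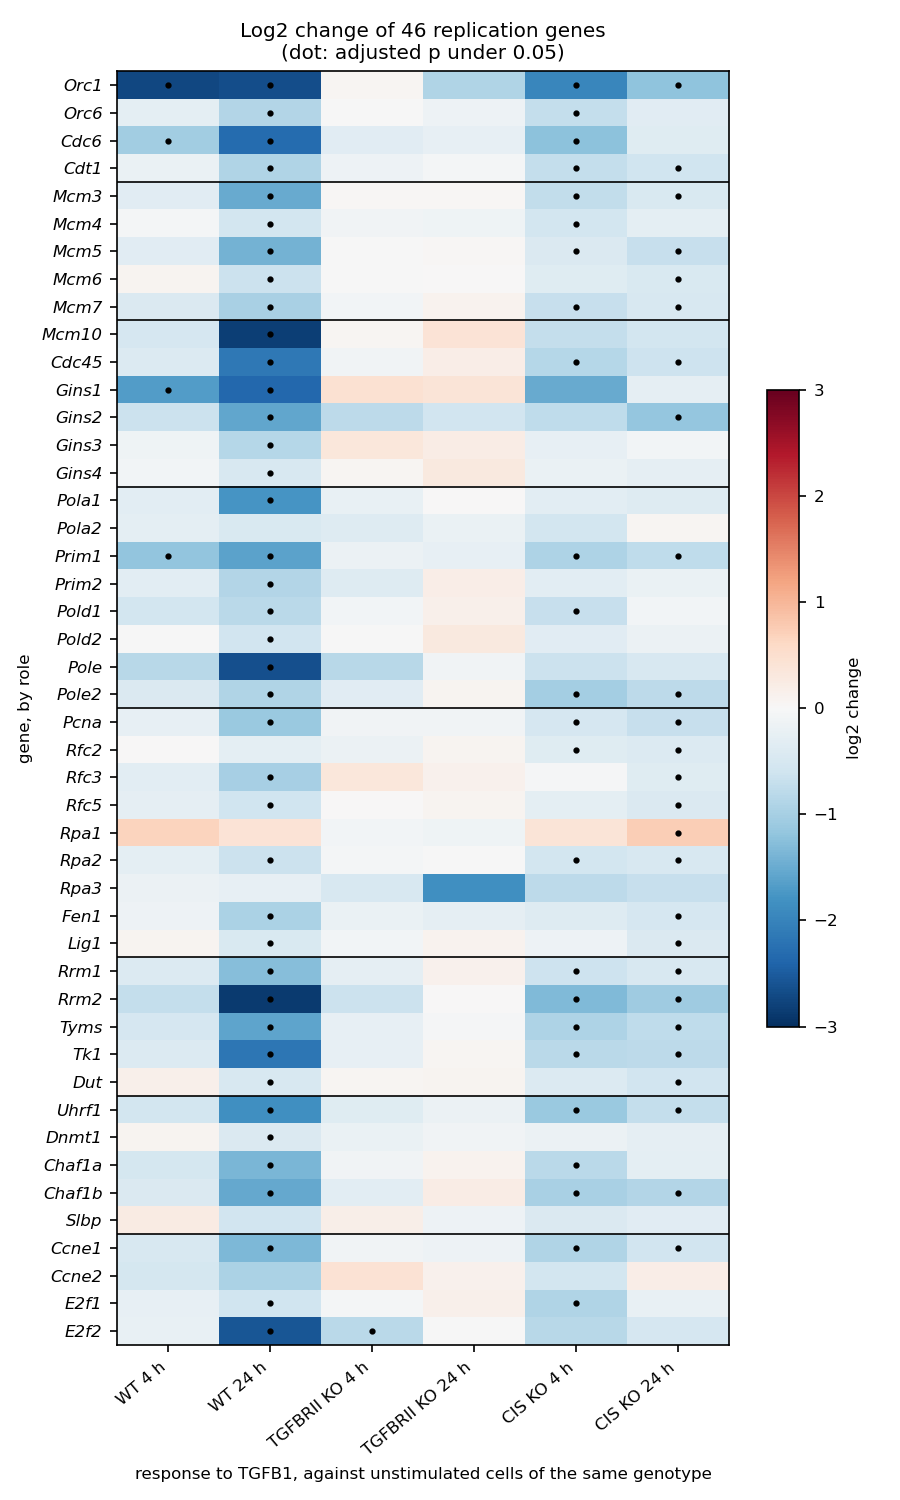
Log2 change after 4 h or 24 h of TGFB1 against unstimulated cells of the same genotype (columns) for 46 genes ordered by role (rows), with a dot where the adjusted p was under 0.05. The WT 24 h column is lower for all genes except Rpa1, the TGFBRII KO 24 h column has a median of 0.02 and runs from -1.84 for Rpa3 to 0.42, without a dot, and the CIS KO columns hold 24 dots at 4 h and 26 at 24 h.

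Origin recognition and licensing is the first step, and 4 of its 4 genes fell in WT by 24 h, with a median log2 change of -1.60. This role also held 2 of the 4 genes that fell in WT at 4 h. Cdc6, the ATPase that joins the origin complex to load the helicase, was at 107, 104, 96.4 and 58.01 CPM in unstimulated WT libraries, at 33.8 and 48.9 CPM at 4 h and at 30.9, 23.7, 8.94 and 7.42 CPM at 24 h. Every stimulated WT library lay under every unstimulated one, and the 24 h libraries under those at 4 h. Cdc6 had a log2 change of -1.04 ± 0.31 (± standard error, as in all later sentences with ±) at 4 h and of -2.30 ± 0.26 at 24 h, a 4.94-fold drop with an adjusted p of 1.62e-08 by edgeR's quasi-likelihood test. In TGFBRII KO, Cdc6 was at 81.1, 81.96 and 97.2 CPM unstimulated, 66.2, 63.4 and 75.4 CPM at 4 h and 74.8, 69.1 and 75.01 CPM at 24 h. CIS KO libraries had 41.4, 63.1, 51.1 and 94.3 CPM of Cdc6 unstimulated, 33.1, 14.3, 39.1 and 19.8 CPM at 4 h and 53.8, 58.7, 43.7 and 41.8 CPM at 24 h. In CIS KO the gene was lower at 4 h (-1.23 ± 0.30) and then rose from 4 h to 24 h by 0.87 ± 0.29, with no overlap between these times, so that its 24 h libraries lay within the unstimulated range.

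Cdt1, the partner of Cdc6 in helicase loading, was at 123, 112, 108 and 100.8 CPM in unstimulated WT, 90.2 and 100.2 CPM at 4 h and 59.1, 60.4, 65.6 and 51.9 CPM at 24 h. The libraries at 4 h lay just under the unstimulated ones and those at 24 h well under both, and the log2 change at 24 h was -0.90 ± 0.12. TGFBRII KO held Cdt1 at 98.8, 102 and 107 CPM unstimulated, 93.9, 84.96 and 97.2 CPM at 4 h and 93.8, 107 and 97.6 CPM at 24 h, and CIS KO had 119, 108, 90.3 and 112 CPM, 72.6, 61.8, 69.99 and 51.9 CPM and 87.7, 63.4, 73.3 and 59.2 CPM at the same times. The CIS KO 4 h and 24 h libraries both lay under the unstimulated ones, with changes of -0.71 ± 0.13 and -0.61 ± 0.12. Orc1, the large ATPase subunit of the origin complex, was a low-count gene at 33.04, 21.2, 11.7 and 15.2 CPM in unstimulated WT, 3.76 and 2.51 CPM at 4 h and 2.69, 2.16, 5.96 and 1.48 CPM at 24 h. It fell by 2.73 ± 0.75 at 4 h, the largest early estimate of the 46 genes in WT. Orc1 had only 1 and 2 counts in the WT libraries at 4 h, on which this value and the next 2 differences rest. At 4 h it was the 1 gene higher in TGFBRII KO than in WT (2.78 ± 0.77, where 5.63% of tested genes were higher and 6.17% lower) and the 1 gene whose 4 h response differed between those genotypes (2.79 ± 0.88, with 3.96% of tested genes on that side and 3.61% on the other). The second call was lost with DESeq2, with the closest pairs summed, with sequencing depth as a covariate and on leaving out any of 6 libraries, and the first without WT 4 h replicate 4. Orc6, a small subunit of the same complex, fell in WT by 24 h (-0.88 ± 0.17) and in CIS KO by 4 h (-0.72 ± 0.18).

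The Mcm2-7 ring is the helicase core, and all 5 tested subunits fell in WT by 24 h, with a median of -0.98. At 4 h none passed the test in WT, with only 2 libraries, and 4 did in CIS KO. Of all tested genes, 5.03% fell in WT and 6.3% in CIS KO at that time. The summed level of the listed Mcm2-7 genes was under every unstimulated library in both genotypes. It went from 897 to 1122 CPM to 853 and 864 CPM in WT. In CIS KO it went from 1003 to 1113 CPM to 678 to 770 CPM. When the early changes of these genotypes were tested against each other, 0 of the 46 genes passed. Mcm3 was at 306, 267, 231 and 211 CPM in unstimulated WT, 210.4 and 197 CPM at 4 h and 106, 91.7, 73.03 and 83.1 CPM at 24 h. The 24 h libraries were far under the rest, the log2 change was -1.51 ± 0.12 (2.85-fold) and its adjusted p was 2.98e-12. Mcm3 in TGFBRII KO stood at 224, 225 and 243 CPM unstimulated, 226, 236 and 245 CPM at 4 h and 219.6, 263 and 223 CPM at 24 h, with all times overlapping. CIS KO had 226, 258, 257 and 286 CPM of Mcm3 unstimulated, 138, 171, 167 and 156 CPM at 4 h and 199.5, 180.0, 175 and 205 CPM at 24 h. There the 4 h libraries were the lowest of the 3 times, and the 24 h libraries lay between, each of them above every WT library at 24 h. The changes in CIS KO were -0.73 ± 0.12 at 4 h and -0.45 ± 0.11 at 24 h.

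Mcm5, another subunit, was at 172, 179.8, 159 and 137 CPM in unstimulated WT, 124 and 130.3 CPM at 4 h and 80.6, 69.1, 50.7 and 37.1 CPM at 24 h, and the 24 h libraries did not overlap the others. It fell by 1.42 ± 0.14 in WT. TGFBRII KO held Mcm5 at 159.6, 139.8 and 164 CPM, 137, 174 and 147 CPM and 146, 179.7 and 148 CPM at the 3 times, and CIS KO at 157, 171, 134 and 172 CPM, 107, 116, 121 and 131 CPM and 106, 95.1, 87.3 and 109.7 CPM. Mcm5 fell at both times in CIS KO (-0.44 ± 0.14 and -0.69 ± 0.14), and its 24 h libraries were still all above those of WT. The other tested subunits also fell in WT, with log2 changes of -0.98 ± 0.14 for Mcm7, -0.63 ± 0.13 for Mcm6 and -0.56 ± 0.11 for Mcm4. Relative to exon length, the unstimulated WT level of Mcm2 was 0.451 CPM per kb, while those of the other 5 subunits were 40.5 (Mcm5) to 67.7 (Mcm3) CPM per kb. The reason for the low Mcm2 count was not tested.

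Helicase activation had the largest median fall of the 8 roles in WT at 24 h (-1.85), and all 6 genes fell. Mcm10, which helps to start the loaded helicase, was at 50.8, 61.2, 50.3 and 46.96 CPM in unstimulated WT, 30.1 and 40.1 CPM at 4 h and 12.1, 8.63, 5.96 and 1.48 CPM at 24 h. The 3 times did not overlap, and at 24 h the gene had a log2 change of -2.82 ± 0.32, 7.05-fold, with an adjusted p of 1.62e-08. TGFBRII KO had Mcm10 at 46.9, 30.1 and 51.03 CPM unstimulated, 44.6, 40.3 and 46.9 CPM at 4 h and 58.2, 55.3 and 57.2 CPM at 24 h. In CIS KO the unstimulated libraries were split, at 19.3, 48.2, 21.6 and 48.6 CPM, followed by 28.02, 19.02, 18.5 and 19.8 CPM at 4 h and 24.1, 33.04, 10.9 and 24.4 CPM at 24 h, and all 3 times overlapped. Its CIS KO changes, -0.71 ± 0.32 and -0.55 ± 0.28, were not called.

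Cdc45, the helicase cofactor that completes the active complex, was at 73.7, 72.4, 75.4 and 53.9 CPM in unstimulated WT, 56.4 and 50.1 CPM at 4 h and 28.2, 12.9, 10.4 and 10.4 CPM at 24 h. At 24 h 1 WT library was higher than the other 3 and still under those of both earlier times, and the log2 change was -2.14 ± 0.24. Cdc45 was at 62.1, 47.01 and 78.98 CPM, 56.6, 51.8 and 64.02 CPM and 54.6, 87.9 and 72.6 CPM in TGFBRII KO at the 3 times. CIS KO gave 46.95, 53.8, 58.9 and 83.2 CPM, 33.1, 33.3, 43.2 and 29.7 CPM and 41.04, 36.4, 40.5 and 50.5 CPM, all at 24 h above every WT library, with log2 changes of -0.85 ± 0.24 and -0.62 ± 0.21 against the unstimulated cells. The GINS complex links Cdc45 to the Mcm ring, and its subunits all fell in WT at 24 h, with log2 changes of -2.35 ± 0.44 for Gins1, -1.56 ± 0.51 for Gins2, -0.86 ± 0.21 for Gins3 and -0.49 ± 0.13 for Gins4. Gins1 also fell at 4 h (-1.68 ± 0.57), from 20.3, 19.98, 20.1 and 23.5 CPM to 0 and 8.77 CPM, and the library at 0 at that time is the shallowest of the series, in which 3 counts, the limit that a count of 0 allows, equal 11.2 CPM.

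**Figure D3:**
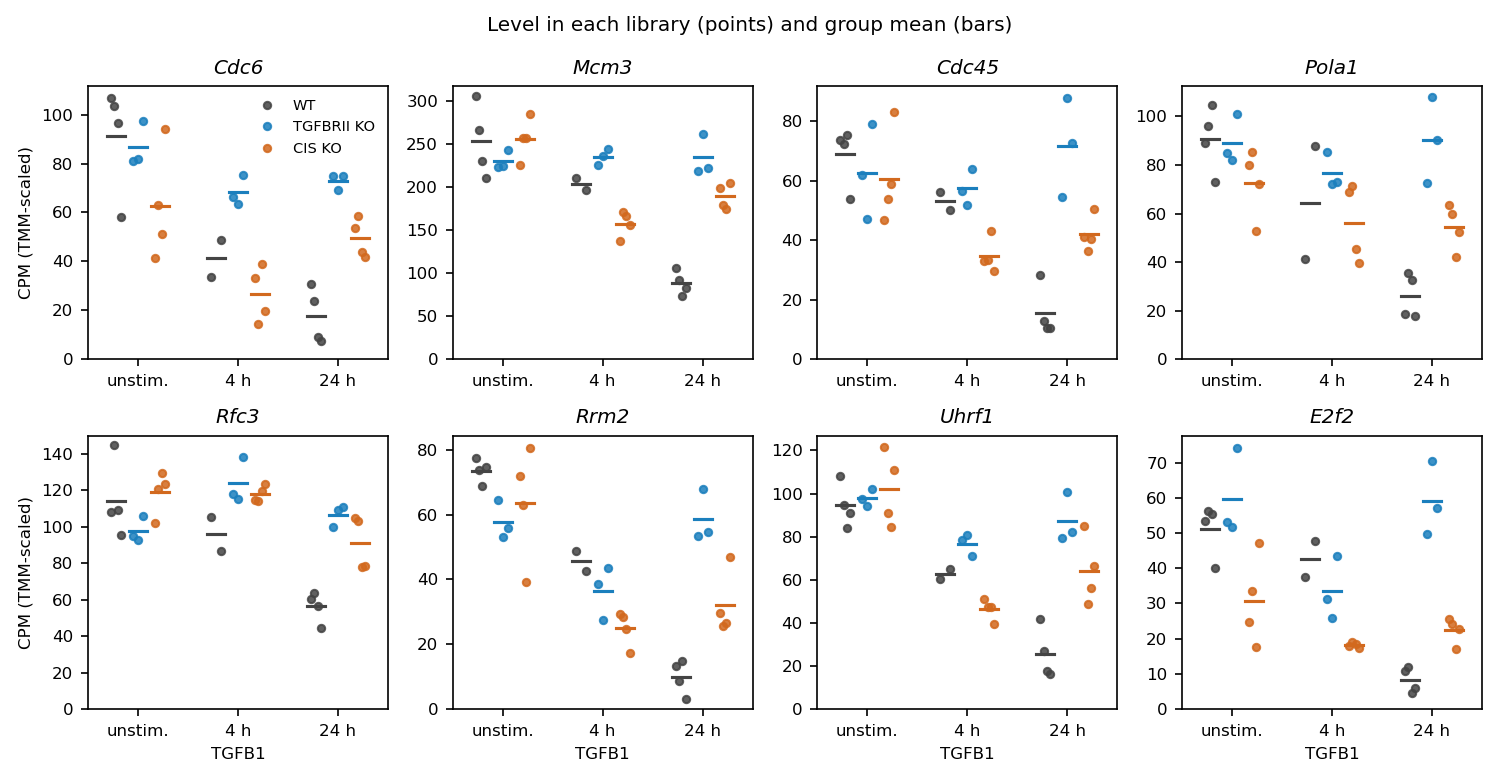
CPM with TMM scaling (y axis, from 0) in each library (points) and group mean (bars) for the member of each role with the smallest p in WT at 24 h, by time (x axis) and genotype (colour). For Mcm3 the 4 WT libraries at 24 h sit at 73.03 to 106 CPM, under the 4 CIS KO libraries at 175 to 205 CPM and the 3 TGFBRII KO libraries at 219.6 to 263 CPM.

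Among polymerases and primase, 7 of 8 genes fell in WT by 24 h, with a median of -0.89. Pola1, the catalytic subunit of the polymerase that starts each new strand, was at 88.96, 96.1, 105 and 73.2 CPM in unstimulated WT, 41.3 and 87.7 CPM at 4 h and 18.8, 35.6, 32.8 and 17.8 CPM at 24 h. The 2 libraries at 4 h were far apart, while those at 24 h lay under all others, and the log2 change at 24 h was -1.77 ± 0.21 (3.42-fold). TGFBRII KO libraries had 84.9, 81.96 and 100.8 CPM of Pola1, then 85.5, 72.00 and 73.2 CPM and 72.4, 108 and 90.5 CPM. CIS KO libraries had 80.1, 85.3, 53.02 and 72.1 CPM, 68.8, 71.3, 45.3 and 39.5 CPM and 63.7, 60.01, 42.1 and 52.2 CPM, overlapping at all times, and neither change was called (-0.32 ± 0.22 and -0.38 ± 0.20).

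Pole, the catalytic subunit of the leading-strand polymerase, was a low-count gene at 21.6, 39.95, 47.8 and 20.7 CPM in unstimulated WT, 3.76 and 25.1 CPM at 4 h and 9.40, 5.40, 1.49 and 4.45 CPM at 24 h. It fell by 2.63 ± 0.42 at 24 h, without overlap with the unstimulated libraries. Pole ran at 26.6, 16.9 and 36.5 CPM, 13.2, 12.96 and 18.3 CPM and 17.8, 28.9 and 27.4 CPM in TGFBRII KO, and at 16.6, 14.8, 31.4 and 19.4 CPM, 19.1, 16.6, 6.18 and 7.41 CPM and 9.91, 19.6, 10.9 and 15.7 CPM in CIS KO, overlapping in both genotypes. Pola2, the regulatory subunit beside Pola1, did not pass the test in WT at 24 h (-0.45 ± 0.24, adjusted p 0.198). Its WT libraries overlapped, at 63.5, 51.2, 32.7 and 46.96 CPM unstimulated, 30.1 and 42.6 CPM at 4 h and 28.2, 52.9, 31.3 and 22.3 CPM at 24 h. Pola2 was at 51.9, 71.1 and 54.7 CPM, 40.9, 48.96 and 45.7 CPM and 49.9, 50.3 and 53.6 CPM in TGFBRII KO and at 24.9, 33.4, 39.3 and 62.4 CPM, 43.3, 23.8, 22.6 and 17.3 CPM and 42.5, 39.8, 48.3 and 48.7 CPM in CIS KO, with no call there. Prim1, the primase subunit that makes the RNA primers, fell in WT at 4 h (-1.19 ± 0.36) and 24 h (-1.60 ± 0.27) and in CIS KO at the same times (-0.93 ± 0.29 and -0.76 ± 0.26). Prim2, Pold1 and Pold2 (subunits of the primase and of the lagging-strand polymerase) and Pole2, the partner of Pole, fell in WT at 24 h, with log2 changes of -0.87 ± 0.20, -0.81 ± 0.16, -0.58 ± 0.15 and -0.91 ± 0.30 in that order.

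The clamp, its loader and the Okazaki fragment enzymes had the smallest median change of the 8 roles in WT at 24 h (-0.59), and 6 of 9 genes fell. In CIS KO 7 of the 9 fell at 24 h. Pcna, the sliding clamp, was at 117, 82.4, 78.8 and 77.3 CPM in unstimulated WT, 75.2 and 73.9 CPM at 4 h and 28.2, 47.5, 43.2 and 44.5 CPM at 24 h. All WT libraries at 24 h were under the rest, and the log2 change was -1.10 ± 0.15. TGFBRII KO held Pcna at 89.9, 92.8 and 85.1 CPM, 95.1, 89.3 and 65.2 CPM and 77.2, 91.7 and 80.97 CPM, and CIS KO at 99.4, 102, 118 and 101.3 CPM, 80.2, 76.1, 59.7 and 81.6 CPM and 73.6, 61.4, 62.4 and 62.7 CPM. In CIS KO both stimulated groups lay under the unstimulated one (-0.49 ± 0.15 and -0.70 ± 0.15). Mouse Pcna has processed pseudogene copies, and how reads shared with such copies were counted is not given in the sources used here.

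Rfc3, a subunit of the clamp loader, was at 108, 145, 109 and 95.3 CPM in unstimulated WT, 105 and 86.4 CPM at 4 h and 60.4, 63.7, 56.6 and 44.5 CPM at 24 h, and fell by 1.00 ± 0.13 with the 24 h libraries apart from the rest. TGFBRII KO had 94.98, 92.8 and 106 CPM of Rfc3, 118, 115 and 138 CPM and 99.7, 109 and 111 CPM, and CIS KO had 102, 121, 129.6 and 123 CPM, 115, 114, 119 and 124 CPM and 105, 103, 77.96 and 78.3 CPM. In CIS KO it was unlike most of the set, with an estimate of -0.03 ± 0.13 at 4 h and a log2 change of -0.37 ± 0.13 at 24 h. Rfc2, of the same loader, was not called in WT at 24 h (-0.30 ± 0.12, adjusted p 0.0612), with 174, 171, 142 and 181 CPM unstimulated, 184 and 158 CPM at 4 h and 158, 135, 140.1 and 102 CPM at 24 h. Rfc2 was at 168, 162 and 159 CPM, 141, 144 and 147 CPM and 159, 177 and 181 CPM in TGFBRII KO and at 218, 199, 181 and 197 CPM, 143, 188, 144 and 141 CPM and 153, 120.0, 173 and 160.2 CPM in CIS KO. There it fell at both times (-0.37 ± 0.13 and -0.42 ± 0.12), and the test of the difference from the WT response at 24 h did not pass (-0.12 ± 0.17, 95% interval -0.44 to 0.21).

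Rpa1, the large subunit of the single-strand binding protein, was the 1 gene of the 46 that rose in a response to TGFB1 against unstimulated cells. It was at 30.4, 14.8, 21.6 and 27.7 CPM in unstimulated CIS KO, 31.8, 23.8, 32.9 and 34.6 CPM at 4 h and 38.2, 28.99, 37.4 and 60.9 CPM at 24 h, a log2 change of 0.74 ± 0.26 (adjusted p 0.0379) in which 1 library overlapped the unstimulated range. WT libraries were at 34.3, 24.97, 26.8 and 17.96 CPM, 37.6 and 43.8 CPM and 22.8, 37.8, 31.3 and 47.5 CPM, with estimates of 0.67 ± 0.31 and 0.41 ± 0.24 that were not called. TGFBRII KO libraries were at 25.3, 30.1 and 30.4 CPM, 33.7, 27.4 and 20.6 CPM and 29.7, 20.1 and 28.6 CPM. The CIS KO and WT responses of Rpa1 were not distinguished (0.33 ± 0.36, 95% interval -0.37 to 1.04). Rpa2, the middle subunit, fell in WT by 24 h (-0.64 ± 0.12) and in CIS KO at both times (-0.56 ± 0.14 and -0.48 ± 0.13).

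Rpa3, the small subunit, varied widely between replicates. It was at 33.04, 12.5, 6.71 and 6.91 CPM in unstimulated WT, 0 and 17.5 CPM at 4 h and 5.37, 9.71, 4.47 and 29.7 CPM at 24 h, with the 0 in the shallowest library of the series and a change of -0.24 ± 0.63 that was not called. Rpa3 was at 58.3, 43.4 and 21.9 CPM, 48.2, 31.7 and 9.15 CPM and 13.1, 13.8 and 7.14 CPM in TGFBRII KO and at 11.05, 11.1, 33.4 and 16.6 CPM, 6.37, 4.75, 28.8 and 2.47 CPM and 22.6, 10.1, 3.12 and 8.70 CPM in CIS KO. The TGFBRII KO libraries at 24 h were all under the unstimulated ones, and the estimate of -1.84 ± 0.62 was not called. Of the Okazaki fragment enzymes, the flap nuclease gene Fen1 (-0.94 ± 0.18) and the ligase gene Lig1 (-0.45 ± 0.11) fell in WT at 24 h, as did the loader gene Rfc5 (-0.59 ± 0.15).

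Nucleotide supply fell as a whole at 24 h, 5 of 5 genes in WT (median -1.57) and 5 of 5 in CIS KO (median -0.75). Rrm2, the S-phase subunit of ribonucleotide reductase, had the largest WT fall of the 46 genes. It was at 77.5, 73.7, 68.7 and 74.6 CPM unstimulated, 48.9 and 42.6 CPM at 4 h and 13.4, 8.63, 14.9 and 2.97 CPM at 24 h, and the times did not overlap. The change was -2.86 ± 0.25, a 7.26-fold drop with an adjusted p of 6.22e-11. In TGFBRII KO Rrm2 was at 64.6, 53.03 and 55.9 CPM, 38.5, 27.4 and 43.4 CPM and 53.4, 67.8 and 54.8 CPM, lowest at 4 h and overlapping between the unstimulated cells and 24 h. CIS KO had 71.8, 63.1, 39.3 and 80.5 CPM, 29.3, 28.5, 24.7 and 17.3 CPM and 29.7, 25.6, 26.5 and 47.00 CPM, and fell at 4 h (-1.32 ± 0.25) and 24 h (-1.06 ± 0.22) while each 24 h library stayed above all WT ones.

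Rrm1, the large subunit of the same enzyme, was at 201, 211, 189 and 178 CPM in unstimulated WT, 105 and 165 CPM at 4 h and 100.7, 77.7, 78.99 and 63.8 CPM at 24 h. The libraries at 24 h lay under all others, with a log2 change of -1.27 ± 0.12 and an adjusted p of 6.51e-10. TGFBRII KO held Rrm1 at 191, 187 and 219.9 CPM, 181, 164 and 149.8 CPM and 205, 239 and 206 CPM, and CIS KO at 174, 189, 173 and 216 CPM, 139, 124, 109 and 116 CPM and 139, 138, 114 and 151 CPM. All stimulated CIS KO libraries were under the unstimulated ones, and all those at 24 h were above WT. Tyms, the thymidylate synthase gene, and Tk1, the thymidine kinase gene, fell after 24 h in both WT (-1.57 ± 0.17 and -2.17 ± 0.22) and CIS KO (-0.75 ± 0.17 and -0.79 ± 0.20). Dut, whose enzyme clears dUTP, fell in WT (-0.48 ± 0.16) and in CIS KO (-0.56 ± 0.16).

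**Figure D4:**
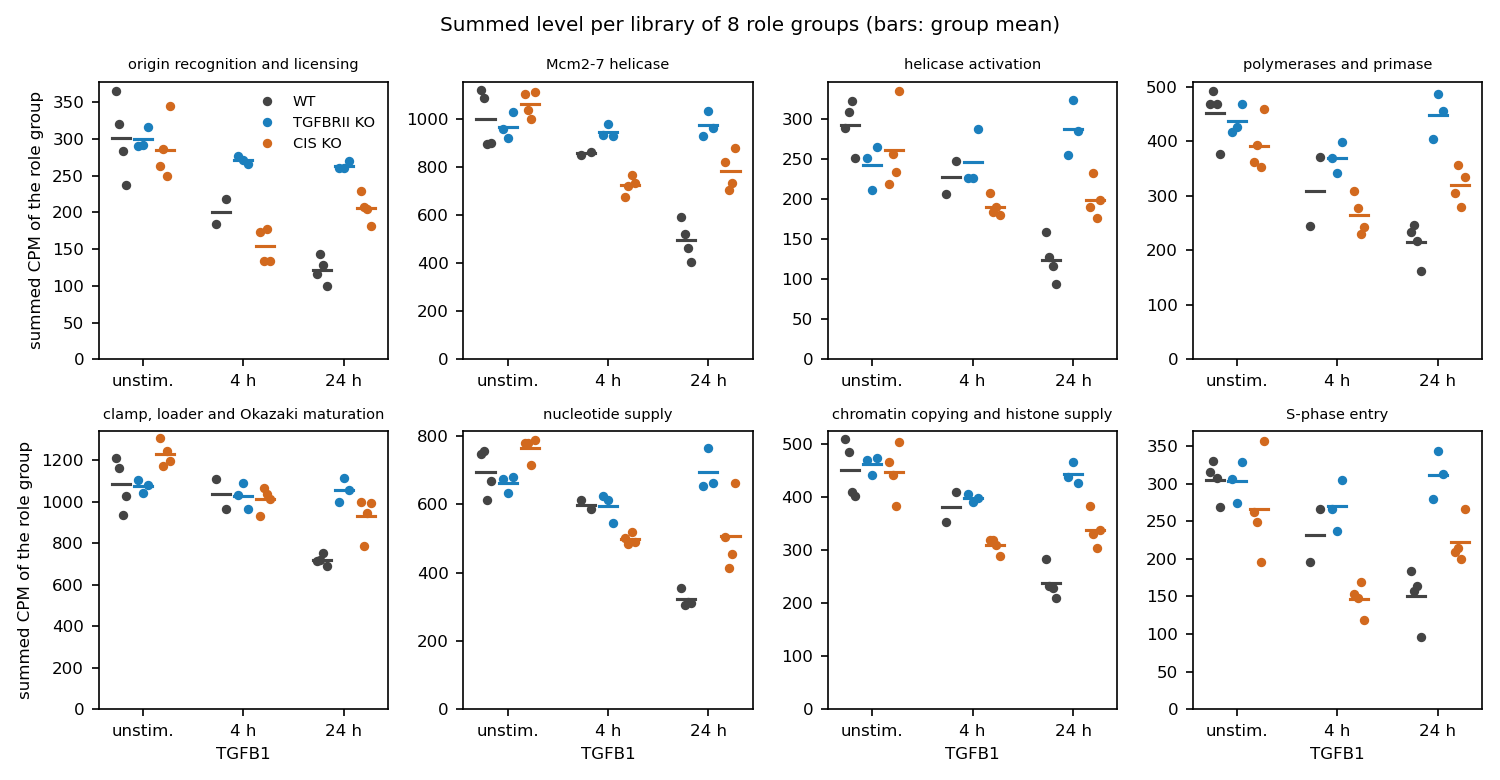
Summed CPM of the listed genes in each of 8 roles (y axis, from 0) in each library (points) with the group mean (bars), by time (x axis) and genotype (colour). For nucleotide supply, WT libraries go from 611 to 757 CPM unstimulated to 305 to 354 CPM at 24 h, CIS KO libraries from 715 to 789 to 414 to 662 CPM and TGFBRII KO libraries from 632 to 679 to 654 to 765 CPM.

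For the copying of chromatin, 4 of 5 genes fell in WT at 24 h (median -1.38). Uhrf1, which brings the maintenance methyltransferase to newly copied DNA, was at 108, 94.9, 83.8 and 91.2 CPM in unstimulated WT, 60.1 and 65.1 CPM at 4 h and 41.6, 26.98, 17.9 and 16.3 CPM at 24 h. The 3 times were separate, and the log2 change at 24 h was -1.84 ± 0.19 (3.57-fold). Uhrf1 in TGFBRII KO was at 97.5, 94.01 and 102 CPM, 78.3, 80.6 and 70.9 CPM and 79.5, 100.5 and 82.2 CPM. CIS KO had 122, 90.9, 84.4 and 111 CPM, 50.9, 47.5, 47.3 and 39.5 CPM and 84.9, 48.5, 56.1 and 66.2 CPM, with the lowest libraries at 4 h and log2 changes of -1.10 ± 0.19 and -0.71 ± 0.17. Dnmt1, the methyltransferase itself, fell less in WT (-0.44 ± 0.10) and was not called in CIS KO (-0.27 ± 0.10).

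Chaf1a, the large subunit of the factor that places histones behind the fork, was at 100.4, 109.9, 104 and 85.6 CPM in unstimulated WT, 48.9 and 77.7 CPM at 4 h and 59.1, 30.2, 35.8 and 29.7 CPM at 24 h, a log2 change of -1.38 ± 0.18. No stimulated WT library reached the unstimulated ones. TGFBRII KO gave 89.9, 87.98 and 94.8 CPM of Chaf1a, 85.5, 72.00 and 92.6 CPM and 98.5, 98.00 and 96.4 CPM, and CIS KO gave 80.1, 90.9, 72.7 and 108 CPM, 61.1, 61.8, 45.3 and 32.1 CPM and 72.2, 86.3, 49.9 and 74.9 CPM. In CIS KO it fell at 4 h (-0.80 ± 0.20) and was not called at 24 h (-0.30 ± 0.17). Chaf1b, the middle subunit, fell in WT (-1.52 ± 0.25) and CIS KO (-0.89 ± 0.24) by 24 h. Slbp, whose protein binds histone mRNA, was at 21.6, 14.98, 15.9 and 12.4 CPM in unstimulated WT, 11.3 and 22.5 CPM at 4 h and 9.40, 14.03, 7.45 and 11.9 CPM at 24 h, and was not called (-0.57 ± 0.33). Slbp stood at 21.5, 16.9 and 15.8 CPM, 28.9, 15.8 and 16.00 CPM and 13.1, 18.8 and 16.7 CPM in TGFBRII KO and at 22.1, 18.6, 13.7 and 24.97 CPM, 15.3, 7.13, 22.6 and 12.4 CPM and 19.8, 18.2, 6.24 and 17.4 CPM in CIS KO, overlapping throughout.

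The regulators of S-phase entry fell in 3 of 4 cases in WT at 24 h (median -1.14). E2f2, one of the activating E2F factors, was at 53.4, 56.2, 55.3 and 40.1 CPM in unstimulated WT, 37.6 and 47.6 CPM at 4 h and 10.7, 11.9, 4.47 and 5.94 CPM at 24 h. Levels at 4 h overlapped the unstimulated range and those at 24 h were far below it, a log2 change of -2.56 ± 0.27 (5.92-fold). TGFBRII KO held E2f2 at 53.2, 51.8 and 74.1 CPM, 31.3, 25.9 and 43.4 CPM and 49.9, 70.4 and 57.2 CPM, again lowest at 4 h. CIS KO had 24.9, 33.4, 17.7 and 47.2 CPM, 17.8, 19.02, 18.5 and 17.3 CPM and 25.5, 24.3, 17.2 and 22.6 CPM, and neither change was called (-0.83 ± 0.30 and -0.50 ± 0.26). Its unstimulated libraries were lower in CIS KO than in WT, all but 1 of them under the WT range, with an estimate of -0.67 ± 0.22 that was not called (adjusted p 0.0598).

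Ccne1, the cyclin that drives entry into S phase, was at 94.04, 86.1, 76.3 and 73.2 CPM in unstimulated WT, 56.4 and 60.1 CPM at 4 h and 40.3, 38.8, 31.3 and 16.3 CPM at 24 h, with the 24 h libraries apart and a log2 change of -1.34 ± 0.20. Ccne1 was at 96.2, 73.5 and 97.2 CPM, 91.5, 74.9 and 82.3 CPM and 70.03, 81.7 and 89.3 CPM in TGFBRII KO and at 69.05, 74.2, 51.1 and 97.1 CPM, 39.5, 40.4, 53.5 and 24.7 CPM and 62.3, 45.2, 38.98 and 59.2 CPM in CIS KO. The CIS KO log2 changes were -0.90 ± 0.22 at 4 h and -0.57 ± 0.20 at 24 h. Ccne2, the second cyclin E, overlapped between the WT groups, at 12.7, 37.5, 36.9 and 16.6 CPM, 15.03 and 20.04 CPM and 12.1, 16.2, 17.9 and 8.90 CPM, and its estimate of -0.94 ± 0.36 was not called. Ccne2 was at 13.9, 13.3 and 20.7 CPM, 16.9, 15.8 and 30.9 CPM and 17.8, 16.3 and 17.9 CPM in TGFBRII KO and at 13.8, 18.6, 19.6 and 19.4 CPM, 15.3, 4.75, 8.23 and 19.8 CPM and 15.6, 34.4, 9.36 and 15.7 CPM in CIS KO. E2f1, another activating E2F, fell in WT at 24 h (-0.59 ± 0.16), and in CIS KO it fell at 4 h (-0.91 ± 0.19) and rose again from 4 h to 24 h (0.69 ± 0.19).

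Set directly against WT, the replication genes of CIS KO cells were higher after 24 h of TGFB1. 18 of 46 were higher (2.22% of tested genes) and 0 were lower (1.05%), with a median difference of 0.68, and the libraries of 17 did not overlap (3.63%). Mcm3 led these by p, 2.12-fold higher in CIS KO (1.09 ± 0.12, adjusted p 2.71e-07), followed by Uhrf1 (1.24 ± 0.20), Rrm1 (0.75 ± 0.13) and Rrm2 (1.61 ± 0.30). The other 14 were Orc6, Cdc6, Mcm4, Mcm5, Mcm10, Cdc45, Pola1, Pcna, Rfc3, Fen1, Tyms, Tk1, Chaf1a and E2f2, from 0.58 for Mcm4 to 1.75 for Mcm10. The count was 4 when the WT and CIS KO libraries at 24 h were fitted alone and 16 with the closest pairs summed. Unstimulated, 0 of 46 genes differed between these genotypes (6.15% of tested genes), with 8 at an unadjusted p under 0.05 and 1 by DESeq2, and without WT unstimulated replicate 1 or CIS KO unstimulated replicate 4 the count was 4. At 4 h 0 differed (0.273%), with 8 at an unadjusted p under 0.05 and 0 by DESeq2.

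The responses themselves were then tested against each other. At 24 h 11 of 46 genes had a smaller fall in CIS KO than in WT (1.21% of tested genes) and 0 a larger one (0.127%). The differences were 1.05 ± 0.16 for Mcm3 (adjusted p 0.000219), 2.06 ± 0.39 for E2f2, 1.94 ± 0.37 for Cdc6, 1.80 ± 0.35 for Rrm2 and 2.26 ± 0.44 for Mcm10. Pola1, Cdc45, Tk1, Rrm1, Uhrf1 and Chaf1a were the others, from 0.78 for Rrm1 to 1.53 for Cdc45. With sequencing depth as a covariate the count was 6, and leaving out 1 library gave 9 to 16. The median library total was 569212 counts in CIS KO and 757683 in WT. By condition, CIS KO totals were 392266 to 711659 counts unstimulated, 442036 to 798891 at 4 h and 590009 to 1403005 at 24 h. WT totals were 712432 to 1135104 unstimulated, 297561 and 806473 at 4 h and 673239 to 898365 at 24 h. Depth thus differed between the conditions of CIS KO as well as between genotypes. Within groups, the slope of log2 count on log2 library total had a median of 1.15 over all tested genes. It was 1.73 for Cdc6, 1.68 for Mcm10, 1.42 for E2f2, 1.06 for Mcm3 and 1.01 for Rrm2. Beyond the covariate, the part of depth was not tested. At 4 h 0 of 46 responses differed (0%), 5 had an unadjusted p under 0.05, DESeq2 called 0, and the median difference was -0.26, so the larger number of early falls in CIS KO was not shown to be a larger early response. For Mcm3 the 95% interval of the 4 h difference was -0.76 to -0.04, and for Cdc6 it was -1.06 to 0.68.

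WT and CIS KO were also compared over the interval from 4 h to 24 h. WT fell further in that interval, with 22 of 46 genes lower at 24 h than at 4 h (4.57% of tested genes), 0 higher (3%) and a median of -0.70. CIS KO had 0 lower (7.7%) and 3 higher (7.75%), with a median of 0.17. The 3 were Cdc6 (0.87 ± 0.29), Pold1 (0.62 ± 0.19) and E2f1 (0.69 ± 0.19). At 6.52% of the 46 genes, such rises were no more frequent than among all tested genes. That count of 3 was 1 without CIS KO 4 h replicate 2 or 4, or with the closest pairs summed. In a comparison added after seeing the data, the change from 4 h to 24 h was higher in CIS KO than in WT for 13 of 46 genes (0.983%) and lower for 0 (0.0584%), and all 46 estimates had that sign, with a median of 0.82. It equals the 24 h response difference less the 4 h one, and the latter was negative for 40 of 46 genes (median -0.26). The 46 genes come from the same libraries, so their signs are not separate observations. In the added comparison E2f2 (2.68 ± 0.46), Mcm10 (2.48 ± 0.54), Rrm2 (2.40 ± 0.44) and Cdc6 (2.13 ± 0.50) had the largest differences among those called. These results lean on the 2 WT libraries at 4 h. Without WT 4 h replicate 4, which leaves the shallowest library of the series alone and assumes that it varies like the other groups, the WT count was 8 and the count of the added comparison 1. With only the 2 WT groups in the fit the WT count was 7.

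CIS KO also differed from TGFBRII KO. In a second comparison added after seeing the data, 7 of 46 genes had a lower 24 h response in CIS KO (4.9% of tested genes) and 0 a higher one (4.45%). The 7 were Cdt1 (-0.56 ± 0.17), Mcm5 (-0.72 ± 0.20), Lig1 (-0.53 ± 0.16), Rrm1 (-0.61 ± 0.17), Rrm2 (-1.08 ± 0.31), Tk1 (-0.86 ± 0.28) and Chaf1b (-1.10 ± 0.34). The median difference was -0.48. Without TGFBRII KO 24 h replicate 2, or with the closest pairs summed, the count was 0. It was 1 to 4 without TGFBRII KO unstimulated replicate 1 or 2, TGFBRII KO 24 h replicate 3 or CIS KO unstimulated replicate 4, and 12 without CIS KO 24 h replicate 4.

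**Figure D5:**
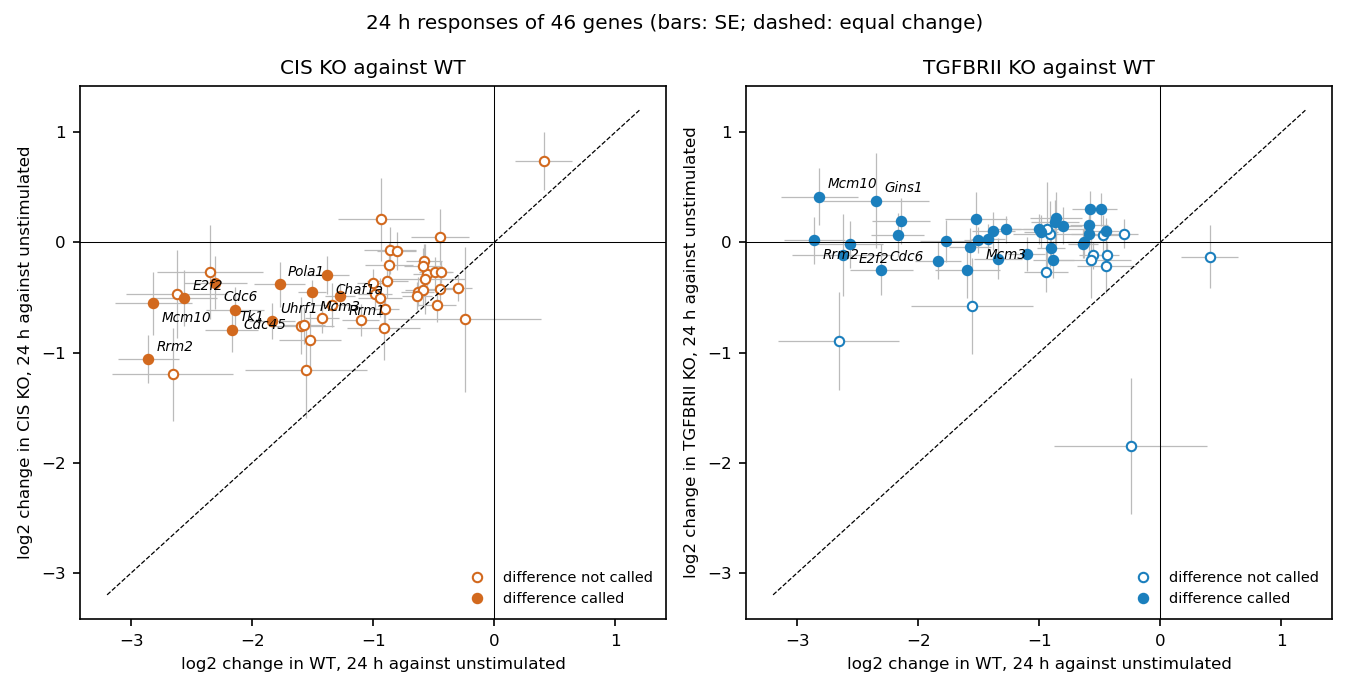
Log2 change at 24 h in CIS KO (left) and TGFBRII KO (right) on the y axes against that in WT on the x axes for 46 genes, with SE bars, a dashed line of equal change and filled points where the responses differed at an adjusted p under 0.05. Rrm2 lies at -2.86 in WT, -1.06 in CIS KO and 0.02 in TGFBRII KO, and 43 of the 46 CIS KO points lie above the dashed line and 3 (Dut, Rfc2 and Rpa3) lie below it.

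A wider set of 102 other genes of the same processes, of which 97 were tested, had 59 falls and 2 rises in WT at 24 h, with a median log2 change of -0.65, where 11.5% of all tested genes fell and 9.63% rose. The 2 that rose were Cdkn1b, an inhibitor of cyclin-dependent kinases (0.39 ± 0.12), and Cad, which starts pyrimidine synthesis (0.33 ± 0.12). In CIS KO 34 fell and 1 rose at 4 h, where 6.3% of all tested genes fell and 7.76% rose, and 27 fell and 0 rose at 24 h, where 11.7% fell and 12.3% rose. In TGFBRII KO 0 were called at 24 h, with 12 at an unadjusted p under 0.05 by edgeR, where 0.0195% of all tested genes were called in either direction. Of 14 tested licensing and firing factors 7 fell in WT, with Gmnn, the inhibitor of Cdt1 (-1.19 ± 0.13), and Dbf4, the partner of the firing kinase (-1.04 ± 0.11), leading by p. Polymerase and clamp accessory genes fell in 12 of 16 cases, among them Pclaf, which binds Pcna (-2.37 ± 0.16), and the topoisomerase gene Top2a (-1.53 ± 0.13). Fork protection and checkpoint genes fell in 12 of 18 cases, among them Clspn, a checkpoint mediator (-2.01 ± 0.16). In nucleotide supply 12 of 18 fell and 1 rose, among the former Shmt2, of one-carbon metabolism (-0.88 ± 0.10). Chromatin copying genes fell in 8 of 12 cases, with the histone chaperone gene Asf1b at -1.91 ± 0.14 and the heterochromatin protein gene Cbx5 at -1.15 ± 0.12. Of the E2F and RB regulators 8 of 19 fell and 1 rose, with Ccna2, the S-phase cyclin (-2.37 ± 0.15), and E2f7, a repressing E2F (-2.34 ± 0.27), having the smallest p.

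The promoter letters were also set beside the 24 h change in WT, with no test. The E2F letters were in 16 of the 34 fallen genes with a promoter entry (47.1%) and in 0 of the 4 tested genes with an entry that were not called, Pola2, Rpa1, Rpa3 and Slbp. The median log2 change was -0.99 over the 16 genes with the letters and -1.02 over the 22 tested genes without. In CIS KO at 24 h the medians were -0.45 and -0.53. Mcm10 and Rrm2, the genes with the largest falls, have no such run in the sequences printed above, while Mcm6, whose window holds 3, fell by 0.63 ± 0.13.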

How the data were processed

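The authors deposited a table of raw counts per gene for 31 libraries with Entrez identifiers, on the mm10 build. Per the submitters' processing notes the tools were Subread and featureCounts, SAMtools, Picard, Trimmomatic and FastQC, without versions. Libraries were made with a directional kit, per the labels' protocols. How strand, duplicates and multiply mapped reads were handled is not given in the sources used here. Groups and replicate numbers came from the labels.

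Counts were tested in edgeR 4.0.16 (R 4.3.3). Genes were filtered with filterByExpr on 9 groups, libraries scaled by TMM, and all 31 libraries fitted together with the quasi-likelihood F-test, Benjamini-Hochberg adjustment over 10275 genes and a call at an adjusted p under 0.05. CPM uses TMM-scaled library sizes. The standard error is the size of the log2 change over the root of F. Response differences are interaction terms. DESeq2 1.42.0 was an alternative, beside other scaling, no filter, depth as a covariate, a replicate block, smaller fits and leaving out 1 library. The floor of 3 counts covers counting error only. The fit was also run on simulated data with independent libraries, for WT at 24 h against unstimulated only. That run does not cover closely alike replicates or the comparisons with WT at 4 h. Coordinates and exon lengths are from GENCODE M21.

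The 48 genes and all lists were chosen with earlier results of these data known. Values in every library are given for 22 genes: the 2 with the smallest p in WT at 24 h in each role, those tested and not called there, and the 4 with the smallest p in the CIS KO and WT response difference at 24 h. Orc1 and Gins1 were added after their values were seen. Of each other pathway list, the 2 called genes with the smallest p in WT at 24 h and any called the other way are named, except that some of these are not reported here.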

Additional observations from a re-analysis of the deposited data

Results flagged for a closer look

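Of 110 sets of libraries (22 genes in the 5 groups of 4 libraries), 8 had a library set apart from the other 3 by more than Dixon's 95% limit, where chance gives about 5%. Mcm10 was at 28.0 CPM in CIS KO 4 h replicate 1, with the others at 18.5 to 19.8 CPM. Cdc45 was at 28.2 CPM in WT 24 h replicate 1 (others 10.4 to 12.9 CPM) and at 53.9 CPM in WT unstimulated replicate 4 (others 72.4 to 75.4 CPM). Pcna stood high in WT unstimulated replicate 1 at 117 CPM (others 77.3 to 82.4 CPM), in CIS KO unstimulated replicate 3 at 118 CPM (others 99.4 to 102 CPM) and in CIS KO 24 h replicate 1 at 73.6 CPM (others 61.4 to 62.7 CPM). Rfc2 was at 188 CPM in CIS KO 4 h replicate 2 (others 141 to 144 CPM). Rpa3 was at 28.8 CPM in CIS KO 4 h replicate 3 (others 2.47 to 6.37 CPM).

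Responses that differed between genotypes by the interaction test are given here as the difference in log2 change, each positive value meaning a smaller fall, or a rise, in the first genotype. For TGFBRII KO minus WT at 4 h the 1 gene was Orc1 at 2.79. At 24 h the same difference covered 33 genes. Among licensing and helicase genes these were Orc6 0.72, Cdc6 2.06, Cdt1 0.85, Mcm3 1.53, Mcm5 1.45, Mcm6 0.64, Mcm7 1.08, Mcm10 3.23, Cdc45 2.34, Gins1 2.73, Gins3 1.08 and Gins4 0.79. Polymerase and primase genes were Pola1 1.79, Prim1 1.35, Prim2 1.06, Pold1 0.96, Pold2 0.88 and Pole 2.52. Clamp, loader and Okazaki genes were Pcna 1.00, Rfc3 1.13, Rfc5 0.66, Rpa2 0.63 and Lig1 0.55. In nucleotide supply the differences were Rrm1 1.39, Rrm2 2.88, Tyms 1.53 and Tk1 2.24. Chromatin copying and S-phase entry genes were Uhrf1 1.67, Chaf1a 1.48, Chaf1b 1.74, Ccne1 1.19, E2f1 0.75 and E2f2 2.55.

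For CIS KO minus WT at 24 h the 11 differences were Cdc6 1.94, Mcm3 1.05, Mcm10 2.26, Cdc45 1.53, Pola1 1.40, Rrm1 0.78, Rrm2 1.80, Tk1 1.38, Uhrf1 1.12, Chaf1a 1.08 and E2f2 2.06. In the change from 4 h to 24 h, CIS KO minus WT, a comparison added after seeing the data, the 13 were Cdc6 2.13, Mcm3 1.45, Mcm4 0.76, Mcm10 2.48, Cdc45 1.96, Pola1 1.40, Rrm1 0.99, Rrm2 2.40, Tyms 1.26, Tk1 1.78, Uhrf1 1.67, Chaf1a 1.34 and E2f2 2.68. For CIS KO minus TGFBRII KO at 24 h, also added after seeing the data, the 7 were Cdt1 -0.56, Mcm5 -0.72, Lig1 -0.53, Rrm1 -0.61, Rrm2 -1.08, Tk1 -0.86 and Chaf1b -1.10.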

How the results depend on the processing

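The counts below are of the 46 genes called in either direction. The counts in WT at 24 h (37 to 41 on leaving out 1 library), in TGFBRII KO against WT at 24 h (33 to 40), in the TGFBRII KO and WT response difference at 24 h (26 to 33) and in CIS KO against WT at 24 h (16 to 20) stayed within 1.5 times the reported value, except for the last when only the 24 h libraries of those genotypes were fitted (4). Scaling by library size alone gave 8 in WT at 4 h, 1 in TGFBRII KO from 4 to 24 h, 6 in CIS KO from 4 to 24 h, 1 in CIS KO against WT unstimulated and 2 in the TGFBRII KO and WT difference at 4 h, and 3 in the CIS KO and TGFBRII KO difference at 24 h. DESeq2 gave 0 in TGFBRII KO at 4 h and from 4 to 24 h, 17 in CIS KO at 24 h, 1 in CIS KO against WT unstimulated, 0 in the TGFBRII KO and WT difference at 4 h and 4 in the CIS KO and TGFBRII KO difference. Without a filter on low counts there was 1 in TGFBRII KO at 24 h, 4 from 4 to 24 h, 1 in TGFBRII KO against WT unstimulated and 2 at 4 h, and 3 and 1 in CIS KO against WT at the same conditions. With depth as a covariate there were 2 in WT at 4 h, 2 in TGFBRII KO at 4 h, 2 in TGFBRII KO against WT at 4 h, 0 in their response difference at 4 h, 6 in the CIS KO and WT difference at 24 h and 12 in that of CIS KO and TGFBRII KO. Fitting only the groups compared gave 7 in WT from 4 to 24 h, 3, 1 and 4 in TGFBRII KO at 4 h, at 24 h and from 4 to 24 h, 13 and 1 in CIS KO at 24 h and from 4 to 24 h, 1 in CIS KO against WT unstimulated and 6 where the change from 4 to 24 h in CIS KO was set against that in WT. With the closest replicate pairs summed, an alternative chosen after seeing the data, there were 0 in TGFBRII KO at 4 h and from 4 to 24 h, 15 in CIS KO at 24 h, 1 from 4 to 24 h, and 0 in the TGFBRII KO and WT difference at 4 h and the CIS KO and TGFBRII KO difference at 24 h. The cause of these shifts was not tested, beyond the smaller number of libraries in the last 2 kinds of fit.

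Leaving out 1 library gave 1 to 3 calls in WT at 4 h, 8 to 23 in WT from 4 to 24 h, 0 to 1 in TGFBRII KO at 4 h and from 4 to 24 h, 12 to 24 in CIS KO at 4 h, 16 to 23 in CIS KO at 24 h and 1 to 4 from 4 to 24 h. It gave 0 to 1 in TGFBRII KO against WT at 4 h and 0 to 2 in their response difference at 4 h, 0 to 4 in CIS KO against WT unstimulated, 9 to 16 in the CIS KO and WT difference at 24 h, 1 to 14 in that of their changes from 4 to 24 h, and 0 to 12 in that of CIS KO and TGFBRII KO. Replicate numbers were not used as pairs in the reported fit. No comparison with at least 3 shared numbers had every same-numbered pair correlated above 0.1, and comparisons with WT 4 h share fewer numbers. The correlations ran from -0.388 (WT 24 h against unstimulated, replicate 1) to 0.250 (CIS KO 24 h against 4 h, replicate 4). Between times in TGFBRII KO all were positive, at 0.015 to 0.198. These values do not settle whether the numbers pair the libraries. With the replicate block the counts were 2 in WT at 4 h, 1 in TGFBRII KO from 4 to 24 h and 0 in the TGFBRII KO and WT difference at 4 h, and the others stayed within 1.5 times. Of the reported values of single genes and medians under the alternatives, 1913 kept their side of the threshold or, for medians, stayed within the replicate spread. A call was lost by 73 and gained by 27, and 0 reversed after a call. These counts leave out 46 values of genes called in neither fit whose sign differed, up to 0.58 in size. They also leave out 2 medians of TGFBRII KO at 24 h. These were -0.04 without unstimulated replicate 2 and -0.06 without 24 h replicate 2. The WT median at 4 h was -0.53 without WT 4 h replicate 4. The depth of 297561 to 1403005 counts limits Orc1, Gins1, Gins2, Pole, Rpa3, Slbp and Ccne2, which had few counts per library.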

Other observations

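The 48 genes differed widely in level per exon length in unstimulated WT cells. Dut, whose enzyme keeps uracil out of DNA, was the most abundant at 107 CPM per kb (79.7 to 120.2 over 4 libraries), followed by the GINS subunit gene Gins4 at 73.8, Mcm3 at 67.7 and the ligase gene Lig1 at 65.2 CPM per kb, and the library ranges of these last 3 overlapped. At the other end were Mcm2 at 0.451, Gins2 at 2.53, Slbp at 2.67, Pole at 2.91 and Rfc4 at 4.30 CPM per kb. How reads that map to several places, strand and duplicates were counted is not given in the sources used here, so a low count such as that of Mcm2 or Rfc4 cannot be read as a low level of the RNA. Exon lengths were taken over all annotated transcripts of each gene, so they include retained introns, and how much this moves each level was not tested.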
